A study of Mus musculus with 36 samples.

Results

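The comparison described here asked whether the difference between wtSOD1 and NTg medium changed with time of exposure. It was the difference between media on day 3 minus the same difference on day 1, for every gene, and it drew on 24 of the 36 libraries of the series. The cells were mouse motor neurons grown from embryonic stem cells of the Hlxb9-GFP1Tmj strain, in which the promoter of the motor neuron gene HB9 (Mnx1) drives eGFP, alone or with the surface protein CD2. In all groups, CD2-positive cells were retained magnetically and cultured in medium conditioned by astrocytes from newborn mice, supplemented with glucose, antibiotics, GDNF, BDNF and CNTF. The 4 groups were wtSOD1 medium on day 3, NTg medium on day 3, wtSOD1 medium on day 1 and NTg medium on day 1, with 6 libraries each. The astrocytes behind wtSOD1 medium over-expressed wild-type SOD1, an antioxidant enzyme whose mutant forms cause familial amyotrophic lateral sclerosis, and those behind NTg medium carried no transgene. The protocol states neither the promoter of the transgene nor whether spinal cord or cortex astrocytes made a given medium. The neurons themselves were of 1 genotype, so their Sod1 level does not check the label of a medium.

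Cells balance cholesterol by opposing programmes. The SREBP transcription factors, held in the endoplasmic reticulum by INSIG proteins when sterols are plentiful, switch on the enzymes of the mevalonate pathway and of cholesterol synthesis. The liver X receptors (LXR), which bind oxidised sterols, switch on the exporters Abca1 and Abcg1, which load cholesterol onto lipoproteins, and the fatty acid regulator Srebf1 with its desaturase targets. In the nervous system astrocytes make much of the cholesterol and pass it to neurons on lipoprotein particles.

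The interaction was called for Abcg1, Abca1 and Idi1. The LXR-induced exporters Abcg1 and Abca1 were lower in wtSOD1 than in NTg medium on day 3, and their day 1 differences did not pass. Idi1, an enzyme of the mevalonate pathway, had a positive interaction. Its estimate lay above the NTg level on day 3 and below it on day 1. With all libraries, neither difference passed by itself without a block, and the day 1 difference passed with one. These were 3 of 15207 genes tested (0.0197%), 1 with a positive interaction and 2 with a negative one, at an adjusted p under 0.05 (edgeR quasi-likelihood test, Benjamini-Hochberg adjustment). At an unadjusted p under 0.05 there were 433 genes (2.85%). Without NTg replicate 6 and wtSOD1 replicate 4 of day 1, which stood apart from their groups, 2 genes passed (0.0131%), Abcg1 and Abca1. Libraries are labelled by experiment, 1 to 6. With the experiment as a block (replicate block) 4 genes passed (0.0263%), and with a separate block for each experiment and day 19 passed (0.125%), all 3 genes among both.

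The stretch of 250 bases before a transcription start is shown for Abca1 and Srebf1, LXR-induced genes that were lower in wtSOD1 medium on day 3, and for Idi1, whose interaction was positive. The sequences are from the RefSeq promoter table on GRCm38.p6, 5′ to 3′ on the gene's own strand. Capitals mark matches to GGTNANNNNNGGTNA, the paired half-sites that LXR is known to bind, in Abca1 and Srebf1, and to CCAAT, the site of the NF-Y factor that acts with SREBP, in Idi1, each searched on both strands. Of the 3 Srebf1 starts in the table, the one with a match is shown.
Abca1, chr4:53159896-53160145, minus strand: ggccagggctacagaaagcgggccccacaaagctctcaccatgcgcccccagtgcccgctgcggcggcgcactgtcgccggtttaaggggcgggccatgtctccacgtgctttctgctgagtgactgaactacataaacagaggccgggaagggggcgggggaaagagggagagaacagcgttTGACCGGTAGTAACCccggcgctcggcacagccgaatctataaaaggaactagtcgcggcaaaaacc
Srebf1, chr11:60210472-60210721, minus strand: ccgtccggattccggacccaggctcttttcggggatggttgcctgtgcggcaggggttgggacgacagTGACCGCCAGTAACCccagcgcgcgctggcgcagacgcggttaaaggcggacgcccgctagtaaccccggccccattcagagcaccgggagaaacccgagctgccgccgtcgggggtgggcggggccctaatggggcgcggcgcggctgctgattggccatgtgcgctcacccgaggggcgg
Idi1, chr13:8885356-8885605, plus strand: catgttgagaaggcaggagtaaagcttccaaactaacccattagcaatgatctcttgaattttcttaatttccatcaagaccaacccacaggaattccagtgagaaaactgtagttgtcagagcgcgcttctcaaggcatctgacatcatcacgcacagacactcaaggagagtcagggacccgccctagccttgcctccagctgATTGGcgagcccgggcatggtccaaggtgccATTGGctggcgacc
The matches begin 67 bases before the start in Abca1, 182 bases before it in Srebf1, and 45 and 14 bases before it in Idi1. All these matches read as the reverse complement of the letters searched. The paired half-sites occur in 0.621% of 32851 stretches of the same length and CCAAT in 33.8%. Of 13 LXR targets tested, 8 had a stretch in the table, and Abca1 and Srebf1 held the paired half-sites. Of 25 cholesterol synthesis genes tested, 17 had a stretch, with 23 stretches in all, of which 16 held CCAAT, each in a different gene. None of those 17 held TCACNCCAC, a sterol regulatory element form found in 1.05% of stretches. A match is a description of letters in the window, not a binding site found in these cells.

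Library depth and cell markers bear on all of these values. The 24 libraries held 4.39 to 88.9 M reads assigned to genes and detected 16465 to 18506 genes. NTg replicate 6 of day 1 was the smallest, with the fewest genes, and wtSOD1 replicate 4 of day 1 the largest. Despite its depth the largest library detected only 16829 genes, and the most genes were detected in NTg replicate 1 of day 3. The summed level of 7 motor neuron markers was 253 to 429 CPM (counts per M reads, scaled by library) in wtSOD1 and 279 to 443 CPM in NTg medium on day 3, and 850 to 959 CPM in wtSOD1 and 844 to 972 CPM in NTg medium on day 1. Chat, which makes acetylcholine, had a lowest, median and highest level of 56.0, 77.8 and 92.2 CPM in wtSOD1 and 63.4, 80.6 and 102 CPM in NTg medium on day 3, against 208, 226 and 239 CPM in wtSOD1 and 183, 225 and 247 CPM in NTg medium on day 1. Slc18a3 lies within Chat, and reads of either may be counted for the other. The summed astrocyte markers were 406 to 559 CPM in wtSOD1 and 431 to 592 CPM in NTg medium on day 3, and 165 to 205 CPM in wtSOD1 and 149 to 219 CPM in NTg medium on day 1. Summed progenitor and dividing markers were 1576 to 2104 CPM in wtSOD1 and 1597 to 2056 CPM in NTg medium on day 3. On day 1 these sums were 788 to 1002 CPM in wtSOD1 and 782 to 1001 CPM in NTg medium. All 30 proliferation genes tested were called higher on day 3 than on day 1 in each medium. The 7 microglia markers summed to at most 7.09 CPM in 23 libraries and to 39.4 CPM in NTg replicate 6 of day 1. The same library held the highest sums of the group for 7 oligodendrocyte markers (246 CPM, group median 84.0 CPM) and for the endothelial and blood markers (28.3 CPM, group median 9.62 CPM). None of the markers that were tested, from 8 cell types, passed the interaction test. Not every marker was tested: 3 of 7 were for microglia, 6 of 7 for oligodendrocytes, 3 of 5 for endothelium and blood, and 1 of 3 for pluripotent cells. In bulk RNA, fewer cells of a type and less RNA per cell cannot be told apart.

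Abcg1 (gene 11307) exports cholesterol to high-density lipoprotein. On day 3 its lowest, median and highest levels were 6.85, 7.57 and 8.44 CPM in wtSOD1 medium, against 16.4, 17.2 and 17.5 CPM in NTg medium. Every wtSOD1 library lay below every NTg library, and the NTg libraries were close to each other. On day 1 the levels were 5.03, 5.79 and 7.89 CPM in wtSOD1 medium, against 6.48, 7.23 and 8.25 CPM in NTg medium, and the groups overlapped. The log2 difference between media was -1.15 ± 0.10 (SE) on day 3 (adjusted p = 1.96e-10) and -0.28 ± 0.11 on day 1 (adjusted p = 0.654). The interaction was -0.87 ± 0.14 on the log2 scale (adjusted p = 0.00598), negative in 6 of 6 experiments, from -1.56 to -0.38. Abcg1 was higher on day 3 than on day 1 by 0.38 ± 0.10 in wtSOD1 medium and by 1.25 ± 0.10 in NTg medium. Without NTg replicate 6 and wtSOD1 replicate 4 of day 1 the interaction was -0.95 ± 0.15 (adjusted p = 0.00234). Abcg1 was read from 35 to 728 reads per library.

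Abca1 (gene 11303) exports cholesterol and phospholipid to apolipoproteins. Its lowest, median and highest levels on day 3 were 148, 159 and 169 CPM in wtSOD1 medium, against 241, 263 and 306 CPM in NTg medium, with no overlap. On day 1 they were 89.9, 113 and 132 CPM in wtSOD1 medium, against 88.1, 109 and 143 CPM in NTg medium, with nearly the same range. The log2 difference was -0.77 ± 0.09 on day 3 (adjusted p = 3.34e-06) and -0.01 ± 0.10 on day 1 (adjusted p = 1). The interaction was -0.76 ± 0.13 (adjusted p = 0.0146), negative in 6 of 6 experiments, from -0.86 to -0.63. Abca1 was higher on day 3 than on day 1 by 0.50 in wtSOD1 and by 1.26 in NTg medium on the log2 scale. Without both of the libraries that stood apart the interaction was -0.76 (adjusted p = 0.043), and without wtSOD1 replicate 4 of day 1 alone it was -0.72 (adjusted p = 0.0575).

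Idi1 (gene 319554) makes dimethylallyl diphosphate, a building block of sterols. On day 3 its lowest, median and highest levels were 68.3, 74.9 and 80.0 CPM in wtSOD1 medium, against 61.9, 67.8 and 69.6 CPM in NTg medium, and the groups overlapped slightly. On day 1 they were 77.6, 84.1 and 90.0 CPM in wtSOD1 medium, against 95.3, 98.4 and 106 CPM in NTg medium, with every wtSOD1 library below every NTg library. The log2 difference was 0.16 ± 0.05 on day 3 (adjusted p = 1) and -0.23 ± 0.05 on day 1 (adjusted p = 0.0901). The day 1 difference passed with the replicate block (adjusted p = 0.0201) and with a block for each experiment and day (0.00275). It did not pass without both of the libraries that stood apart and without a block (-0.19, adjusted p = 0.373). The interaction was 0.39 ± 0.07 (adjusted p = 0.0178), positive in 6 of 6 experiments, from 0.22 to 0.58. Idi1 was lower on day 3 than on day 1 in both media, with a log2 difference of -0.17 in wtSOD1 and -0.56 in NTg medium. Without both of the libraries that stood apart the interaction was 0.34 (adjusted p = 0.149). It also missed the threshold when wtSOD1 replicate 4 of day 1 (adjusted p = 0.0575), NTg replicate 4 of day 3 (0.0518) or wtSOD1 replicate 6 of day 3 (0.0508) was left out.

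**Figure D1:**
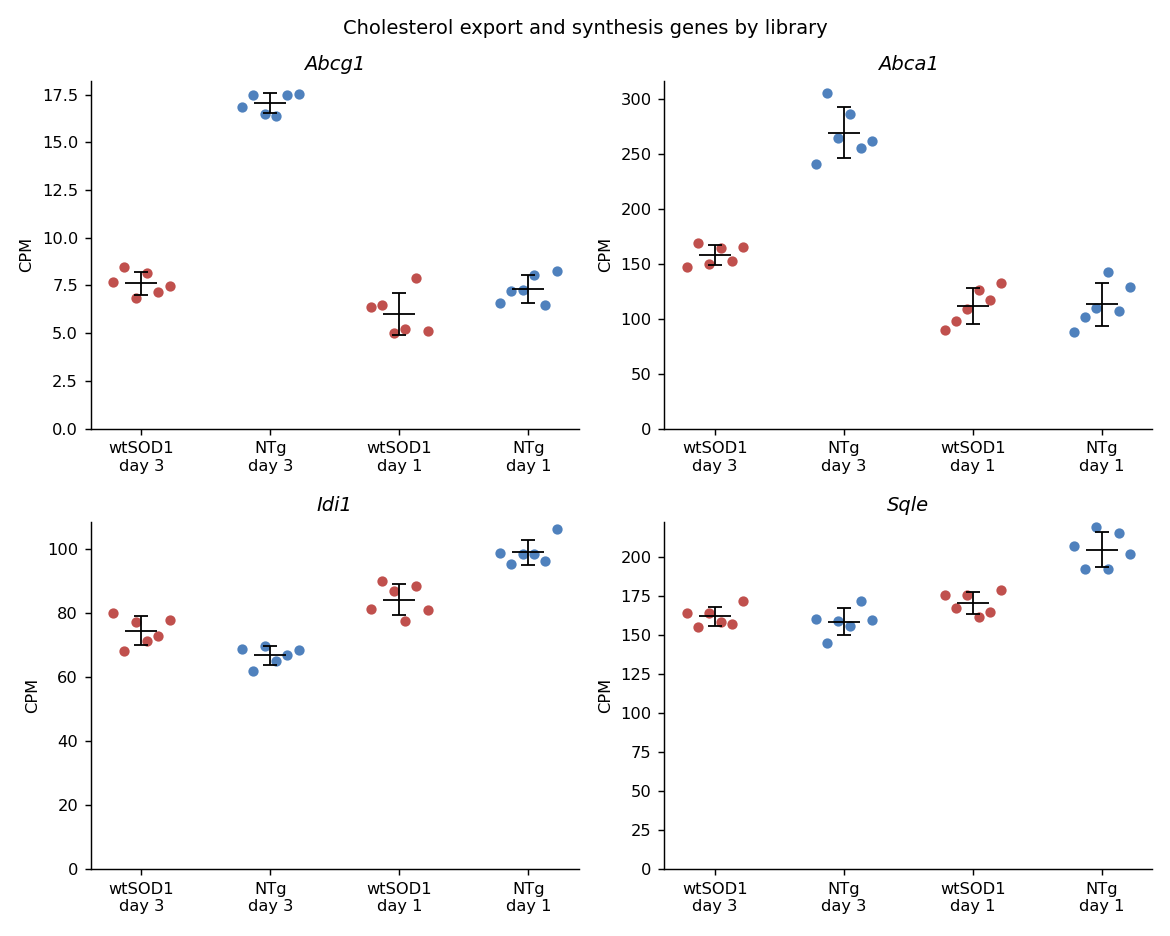
Levels in CPM (vertical axes, from 0) of Abcg1, Abca1, Idi1 and Sqle in each library of the 4 groups; points are libraries, bars the mean ± SD (n = 6). On day 3 the wtSOD1 libraries of Abcg1 (at most 8.44 CPM) and Abca1 (at most 169 CPM) lie below all NTg libraries, and on day 1 those of Idi1 (at most 90.0 CPM) and Sqle (at most 179 CPM) do.

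The remaining genes of cholesterol synthesis and its control mostly had positive estimates, as Idi1 did. Of 26 genes listed, 25 were tested, and Hmgcs1 was listed at 0 reads in all libraries. Idi1 was the 1 member that passed (all genes, 0.00658% with a positive interaction), with no member passing in the negative direction and 24 not passing. The estimate was positive for 22 and negative for 3 members, against 7624 and 7583 of all genes. The median interaction was 0.24, against 0.0003 over all genes, and 0.21 without both libraries that stood apart. At an unadjusted p under 0.05, 17 members were positive (all genes, 1.35%) and none was negative (all genes, 1.5%). With a block for each experiment and day 9 members passed (11 with that block and without both libraries that stood apart), and the 9 were the only genes with a positive interaction that passed in the blocked fit of all libraries (0.0592% of all genes).

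Sqle (gene 20775), squalene epoxidase, had levels of 156, 162 and 172 CPM (lowest, median and highest) in wtSOD1 medium, against 145, 159 and 172 CPM in NTg medium on day 3. On day 1 it had 162, 171 and 179 CPM in wtSOD1 medium, against 192, 205 and 219 CPM in NTg medium. The media overlapped on day 3 and were apart on day 1. The day 1 difference passed, at -0.26 ± 0.04 (adjusted p = 0.00213), and the day 3 difference was 0.03 ± 0.04 (adjusted p = 1). The interaction of 0.29 ± 0.06 did not pass without a block (adjusted p = 0.0698) and passed with the replicate block (0.0146) and with a block for each experiment and day (0.00226). Its value in the 6 experiments ran from 0.26 to 0.37.

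Insig1 (gene 231070), which retains the SREBP escort protein in the endoplasmic reticulum, had levels of 73.1, 82.0 and 86.4 CPM in wtSOD1 medium, against 73.6, 78.0 and 80.9 CPM in NTg medium on day 3. On day 1 it had 83.7, 86.0 and 89.9 CPM in wtSOD1 medium, against 97.0, 101 and 105 CPM in NTg medium. As for Sqle, the groups were apart on day 1 only, when Insig1 was lower by a log2 difference of -0.23 ± 0.04 (adjusted p = 0.0437). The day 1 difference did not pass without both libraries that stood apart (adjusted p = 0.156). Its interaction of 0.28 ± 0.06 had an adjusted p of 0.225 without a block and 0.0194 with a block for each experiment and day.

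Fdps, which makes farnesyl diphosphate, had the largest interaction of the members that passed with that block, 0.51 ± 0.12 (adjusted p = 0.354 without a block and 0.00145 with a block for each experiment and day). Its median was 32.2 CPM in wtSOD1 and 28.6 CPM in NTg medium on day 3, and 32.4 CPM in wtSOD1 and 42.7 CPM in NTg medium on day 1. Lss, lanosterol synthase, had an interaction of 0.38 ± 0.10 (0.623 without a block, 0.00621 with it), and Nsdhl, which removes a methyl carbon from sterols, 0.33 ± 0.08 (0.414 and 0.0149). The values were 0.32 ± 0.10 (1 and 0.0258) for Sc4mol, a methylsterol oxidase also named Msmo1, and 0.29 ± 0.09 (1 and 0.00553) for Fdft1, squalene synthase. Without both libraries that stood apart Sc4mol had an interaction of 0.25, and with a block for each experiment and day it did not pass (adjusted p = 0.0861). Fdft1 overlaps Ctsb in the annotation, so its reads may be shared. All of these genes had a positive interaction in 6 of 6 experiments, counted in the same libraries by which they were chosen.

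Members that passed in neither fit had smaller or less certain values. The sterol carrier Stard4 had 0.29 ± 0.10, the mevalonate enzymes Mvd and Mvk 0.28 ± 0.14 and 0.24 ± 0.12, Dhcr7, which catalyses the final step to cholesterol, 0.24 ± 0.08, and Sc5d 0.20 ± 0.07 (adjusted p = 1 for each). Cyp51, which demethylates lanosterol, had 0.19 ± 0.08 and the transcription factor Srebf2 0.16 ± 0.07, again with an adjusted p of 1. Srebf2 overlaps Mir33. Insig2, a relative of Insig1, had -0.10 ± 0.09 (adjusted p = 1).

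The 2 daily comparisons and the 2 time courses that make up the interaction showed where the members stood. On day 3 the median log2 difference between wtSOD1 and NTg medium over the 25 members was 0.04, none passed, and 2 were higher at an unadjusted p under 0.05 (all genes, 1.17%). On day 1 the median was -0.20, with Sqle and Insig1 passing and 19 members lower at an unadjusted p under 0.05 (all genes, 2.72%). Of these, Sqle also passed without both libraries that stood apart (adjusted p = 0.0258) and Insig1 did not (0.156). Between days, 9 members fell and 4 rose in wtSOD1 medium (all genes, 30.7% and 31.1%), with a median log2 difference of -0.07, day 3 minus day 1. In NTg medium 18 fell and 2 rose (all genes, 30.8% and 30.8%), with a median of -0.38. The counts by medium were not tested against each other.

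**Figure D2:**
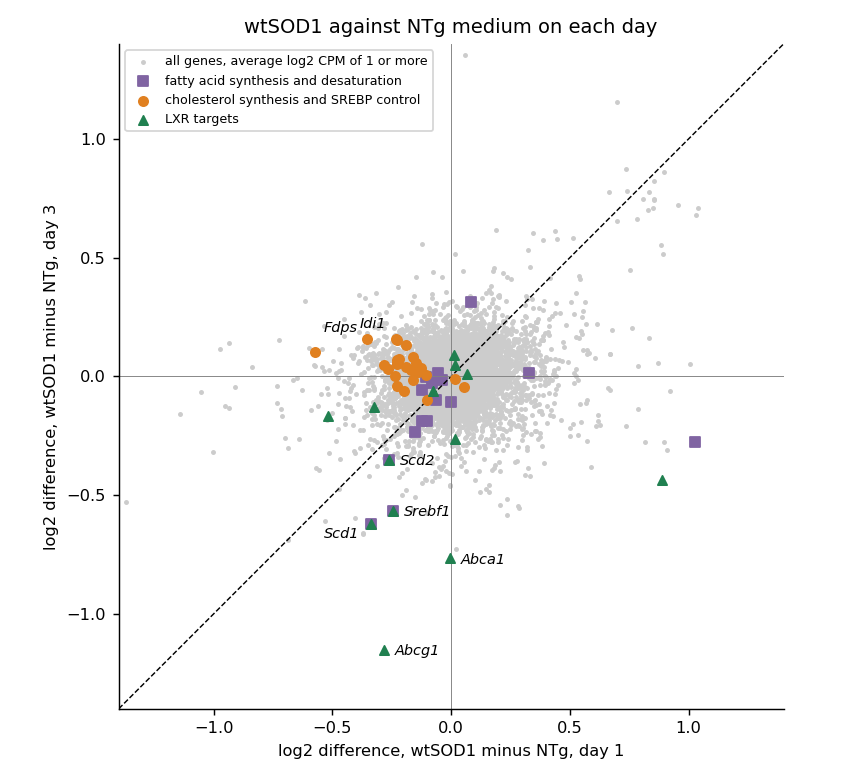
Log2 difference between wtSOD1 and NTg medium on day 3 (vertical) against that on day 1 (horizontal); grey points are all genes with an average log2 CPM of at least 1, coloured symbols the tested list members inside the axes, and the dashed line marks equal differences. Most cholesterol synthesis genes lie left of zero near the horizontal axis (medians 0.04 on day 3 and -0.20 on day 1), and Abca1 (-0.77 on day 3 and -0.01 on day 1) and Abcg1 (-1.15 and -0.28) lie far below the line.

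Of 15 LXR targets and receptors listed, 13 were tested. Abcg1 and Abca1 passed with a negative interaction (0.0132% of all genes did), none passed with a positive one, and 11 did not pass. The median was -0.09, with 8 negative and 5 positive estimates, and 6 members were negative at an unadjusted p under 0.05 (all genes, 1.5%). Without both libraries that stood apart the median was -0.23. On day 3 the median log2 difference was -0.27, and 5 members were lower in wtSOD1 medium (all genes, 0.0592%); on day 1 the median was -0.08, and Scd2 was the 1 member that passed, also lower.

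Srebf1 (gene 20787), the transcription factor of fatty acid synthesis, was lower in wtSOD1 medium on day 3 and had no called interaction. Its lowest, median and highest levels were 119, 138 and 147 CPM in wtSOD1 medium, against 183, 201 and 224 CPM in NTg medium on day 3, and 53.3, 56.0 and 64.8 CPM in wtSOD1 medium, against 56.8, 69.5 and 79.9 CPM in NTg medium on day 1. The media were apart on day 3 and overlapped on day 1. The log2 difference was -0.57 ± 0.07 on day 3 (adjusted p = 3.34e-06) and -0.25 ± 0.07 on day 1 (adjusted p = 0.397), and the interaction was -0.32 ± 0.10 (adjusted p = 1; 0.358 with a block for each experiment and day). Srebf1 overlaps Rai1.

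Scd1 (gene 20249), a fatty acid desaturase, had medians of 128 CPM in wtSOD1 and 195 CPM in NTg medium on day 3, and 53.7 CPM in wtSOD1 and 70.6 CPM in NTg medium on day 1. Its log2 difference was -0.62 ± 0.07 on day 3 (adjusted p = 9.53e-07) and -0.34 ± 0.08 on day 1 (adjusted p = 0.0914; 3.44e-04 with a block for each experiment and day and 0.0295 without both libraries that stood apart), with an interaction of -0.28 ± 0.10 (adjusted p = 1). Scd2 (gene 20250), the main desaturase of brain, had medians of 2048 CPM in wtSOD1 and 2601 CPM in NTg medium on day 3, and 1079 CPM in wtSOD1 and 1316 CPM in NTg medium on day 1, with the media apart on both days. It was lower on both, by log2 differences of -0.35 ± 0.04 (adjusted p = 1.43e-06) on day 3 and -0.26 ± 0.04 (adjusted p = 0.00213) on day 1, and its interaction of -0.09 ± 0.06 did not pass (adjusted p = 1).

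Lpcat3, which adds polyunsaturated chains to phospholipids, had medians of 43.2 CPM in wtSOD1 and 51.8 CPM in NTg medium on day 3, with the media apart, and 33.6 CPM in wtSOD1 and 33.9 CPM in NTg medium on day 1. Its interaction was -0.28 ± 0.09 (adjusted p = 1), negative in 6 of 6 experiments. Lpcat3 overlaps Emg1. Of the receptors themselves, Nr1h2 (LXR-beta) was at most 32.3 CPM in wtSOD1 and 31.2 CPM in NTg medium on day 3, and at most 32.9 CPM in wtSOD1 and 34.5 CPM in NTg medium on day 1, with an interaction of -0.05 ± 0.11 (adjusted p = 1). Nr1h3 (LXR-alpha), which overlaps Acp2, was at most 1.65 CPM in any of the 24 libraries, with an interaction of -1.32 ± 0.55 (adjusted p = 1). Apoe, which carries cholesterol, reached 22.2 CPM in NTg replicate 6 of day 1, and its interaction of 0.35 ± 0.62 (adjusted p = 1) was -0.65 without that library.

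**Figure D3:**
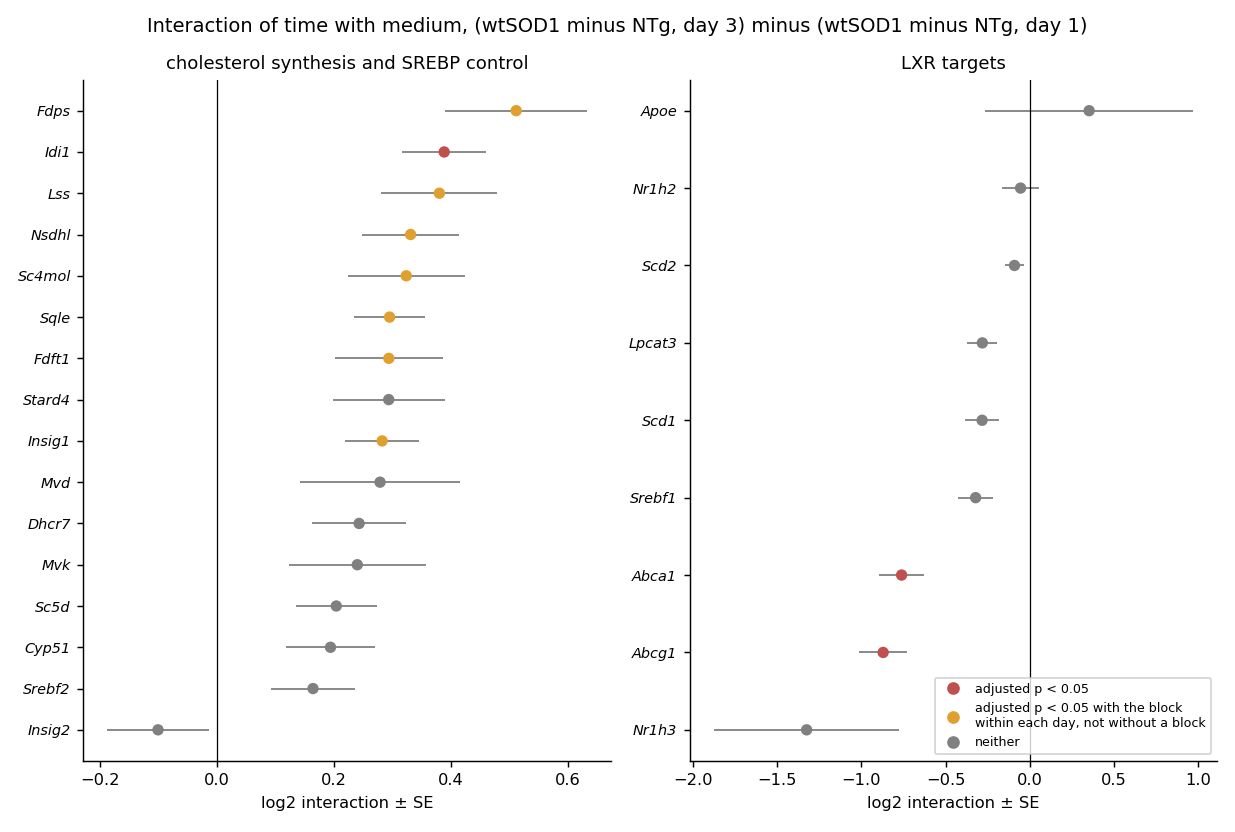
Interaction on the log2 scale (horizontal, estimate ± SE from 36 libraries) for the tested genes of the cholesterol synthesis list and of the LXR list that the text names; red points passed at an adjusted p under 0.05 and orange points passed with a block for each experiment and day but not without a block. All cholesterol genes shown except Insig2 (-0.10) lie right of zero, and Abca1 (-0.76) and Abcg1 (-0.87) lie left of zero in the LXR list. In the whole lists, 3 of 25 tested cholesterol genes were negative and 5 of 13 tested LXR genes were positive, and not all of these are shown.

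The fatty acid list of 16 genes, which shares Srebf1, Scd1 and Scd2 with the LXR list, had no called interaction and a median of -0.07, with 10 negative and 6 positive estimates. On day 3, Srebf1, Scd1, Scd2, Fasn and Acsl3 passed, all lower in wtSOD1 medium (all genes, 0.0592%). Fasn, fatty acid synthase, had a log2 difference of -0.23 ± 0.05 on day 3 (adjusted p = 0.0241) and -0.15 ± 0.05 on day 1 (adjusted p = 0.42; 0.032 with a block for each experiment and day), and its interaction was -0.08 ± 0.07. Acsl3, which activates fatty acids and overlaps Utp14b, had -0.19 ± 0.04 on day 3 (adjusted p = 0.0314) and an interaction of -0.06 ± 0.06. Both interactions had an adjusted p of 1.

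Interferon-stimulated genes had mostly negative interactions, none of which passed. Of 25 listed, 22 were tested, with 18 negative and 4 positive estimates and a median of -0.23 (-0.33 without both libraries that stood apart). At an unadjusted p under 0.05, 4 were negative (all genes, 1.5%) and none positive. Irf9 (gene 16391), which gives ISGF3, the factor activated by interferon, its DNA contact, had levels of 18.5, 19.4 and 20.9 CPM (lowest, median and highest) in wtSOD1 medium, against 16.6, 19.1 and 20.6 CPM in NTg medium on day 3. On day 1 it had 23.5, 26.2 and 28.9 CPM in wtSOD1 medium, against 17.7, 20.3 and 24.1 CPM in NTg medium. The media covered nearly the same range on day 3, and on day 1 they overlapped slightly, with wtSOD1 higher. Irf9 was higher on day 1 by 0.39 ± 0.07 (adjusted p = 0.023), with a log2 difference of 0.04 ± 0.07 on day 3 (adjusted p = 1), and the interaction was -0.35 ± 0.10 (adjusted p = 1; 0.291 with a block for each experiment and day), negative in 6 of 6 experiments. No gene was called higher in wtSOD1 medium on day 1 when wtSOD1 replicate 4 or NTg replicate 1, 2 or 4 of that day was left out. The membrane antiviral protein Bst2 had an interaction of -0.72 ± 0.24, and the RNA sensors Ddx58 and Ifih1 -0.39 ± 0.15 and -0.67 ± 0.26, each negative in 5 of 6 experiments and with an adjusted p of 1.

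Immediate-early genes, which neurons switch on after activity, had 17 negative and 5 positive estimates among 22 tested of 24 listed, a median of -0.17 and no called interaction. Fosl2 (gene 14284), a subunit of the transcription factor AP-1, had levels of 60.3, 69.5 and 74.0 CPM in wtSOD1 medium, against 61.6, 74.0 and 81.6 CPM in NTg medium on day 3, and 62.3, 73.1 and 80.9 CPM in wtSOD1 medium, against 56.6, 59.6 and 72.6 CPM in NTg medium on day 1. The groups overlapped on both days. Its interaction of -0.34 ± 0.09 had an adjusted p of 0.812 without a block and 0.00553 with a block for each experiment and day, and was negative in 6 of 6 experiments. Fos, the best known AP-1 subunit, had -0.39 ± 0.15 and the activity-dependent factor Npas4 -0.49 ± 0.26 (adjusted p = 1 for both), with day 1 log2 differences of 0.45 ± 0.10 (adjusted p = 0.0901) and 0.68 ± 0.16 (adjusted p = 0.178). Both day 1 differences passed with the replicate block (adjusted p = 0.0287 for Fos and 0.0201 for Npas4) and with a block for each experiment and day (5.28e-05 and 5.76e-04). Without both libraries that stood apart and without a block neither passed (adjusted p = 0.297 for Fos and 0.297 for Npas4).

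**Figure D4:**
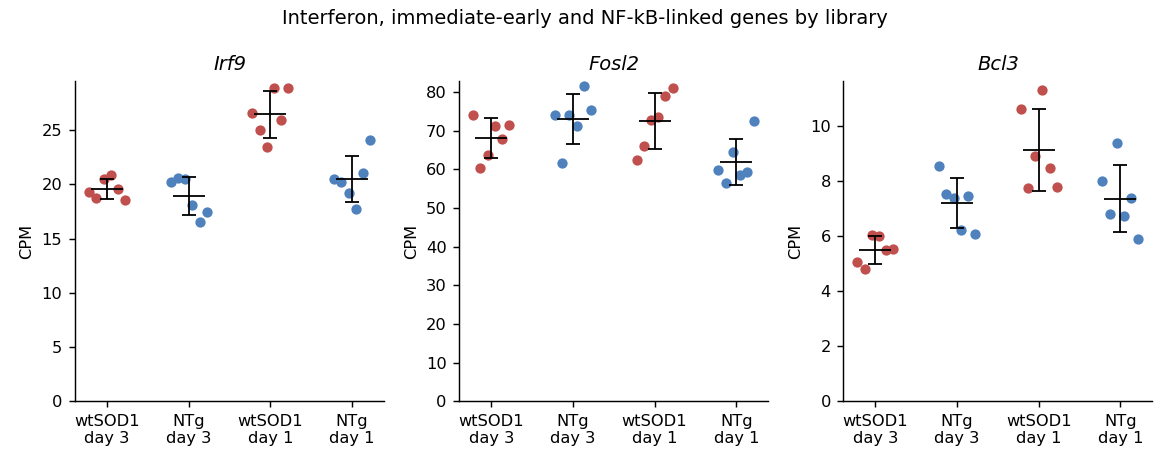
Levels in CPM (vertical axes, from 0) of Irf9, Fosl2 and Bcl3 in each library of the 4 groups; points are libraries, bars the mean ± SD (n = 6). The media overlap for Irf9 and Fosl2 on both days, and for Bcl3 the wtSOD1 libraries (at most 6.07 CPM) lie below the NTg libraries (at least 6.10 CPM) on day 3.

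Among the other genes with the lowest p-values, negative interactions included Bcl3 (gene 12051), a nuclear partner of NF-kB. Its lowest, median and highest levels were 4.80, 5.53 and 6.07 CPM in wtSOD1 medium, against 6.10, 7.43 and 8.55 CPM in NTg medium on day 3, and 7.76, 8.70 and 11.3 CPM in wtSOD1 medium, against 5.89, 7.11 and 9.39 CPM in NTg medium on day 1. The media were just apart on day 3, with wtSOD1 lower, and overlapped on day 1, with the wtSOD1 median higher. The interaction was -0.73 ± 0.18 (adjusted p = 0.414; 0.0345 with a block for each experiment and day, 0.086 with that block and without both libraries that stood apart). Neurod1, a transcription factor of neuronal differentiation, had -0.56 ± 0.14 (adjusted p = 0.414), with medians of 6.06 CPM in wtSOD1 and 7.18 CPM in NTg medium on day 3, and 12.1 CPM in wtSOD1 and 10.6 CPM in NTg medium on day 1. Pnp and Pnp2, which encode purine nucleoside phosphorylases, had -0.37 ± 0.09 (adjusted p = 0.414) and -0.53 ± 0.14 (adjusted p = 0.623). They are near-identical neighbours whose reads may be split between them, so neither value is certain for its gene. Rnf145, a ubiquitin ligase of the endoplasmic reticulum, had -0.19 ± 0.05 (adjusted p = 0.812) and was lower in wtSOD1 medium on day 3 by -0.27 ± 0.04 (adjusted p = 2.24e-05). Pappa2, a protease that releases insulin-like growth factor, had -0.82 ± 0.24 (adjusted p = 1).

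Of the 10 positive interactions of lowest p, 7 were in the cholesterol list, and the others were Aldh1a1, Tpmt and Rarres2. Aldh1a1, which makes retinoic acid, had 2.36 ± 0.62 (adjusted p = 0.623), from 1 to 3 reads per library in wtSOD1 and 2 to 6 reads in NTg medium on day 1. Its day 1 level was at most 0.172 CPM in wtSOD1 and at least 0.255 CPM in NTg medium, so the groups were apart at very few reads. It had medians of 4.91 CPM in wtSOD1 and 4.67 CPM in NTg medium on day 3. Without both libraries that stood apart its interaction was 1.55. Tpmt, a methyltransferase of thiopurines, had 0.35 ± 0.10 and Rarres2, the precursor of the chemokine-like protein chemerin, 0.41 ± 0.12, the last in 4 of 6 experiments, both with an adjusted p of 1. Rarres2 overlaps Lrrc61.

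The block for each experiment and day called 10 negative interactions (0.0658% of all genes): Abca1, Abcg1, Fosl2, Bcl3, Pnp, Acta2, Krt18, Axl, Ankrd1 and Slc38a4. In that fit Acta2, smooth muscle actin, had an interaction of -0.42 (adjusted p = 0.0104 with this block and 1 without), and Axl, a receptor kinase, -0.31 (0.0345 and 1). Acta2 is a mesenchymal marker, and the summed level of 6 mesenchyme markers was 174 to 250 CPM in wtSOD1 and 199 to 261 CPM in NTg medium on day 3, and 67.1 to 113 CPM in wtSOD1 and 55.9 to 118 CPM in NTg medium on day 1. The part of these cells in the values of Acta2 and Axl was not tested. The keratin Krt18 had -0.80 (0.0251 and 1), the muscle stress protein Ankrd1 -0.86 (0.0445 and 1) and the amino acid carrier Slc38a4 -0.53 (0.045 and 1). Without a block the interaction of Krt18 was -0.75, and it was -1.17 without NTg replicate 1 of day 1 and -0.29 without wtSOD1 replicate 1 of day 1. With the block and without both libraries that stood apart Slc38a4 did not pass (adjusted p = 0.0958).

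Genes that differed between media on day 3 need not have had an interaction. The called day 3 genes were 9 lower and 6 higher in wtSOD1 medium (0.0592% and 0.0395% of all genes), and of these 15 only Abcg1 and Abca1 had a called interaction. Slc16a6, of the monocarboxylate carrier family, was higher by 0.42 ± 0.07 on day 3 (adjusted p = 2.98e-04), with a day 1 difference of 0.23 ± 0.06 (adjusted p = 0.299; 0.0207 with a block for each experiment and day) and an interaction of 0.18 ± 0.09 (adjusted p = 1). It overlaps Arsg, a sulfatase that was also called on day 3 at 0.41 ± 0.09 (adjusted p = 0.0301). Slc16a9, a carrier of the same family, was higher by 0.57 ± 0.11 (adjusted p = 0.00554), with an interaction of 0.19 ± 0.15, and the arrestin-like Arrdc3 by 0.44 ± 0.08 (adjusted p = 0.00554), with an interaction of 0.27 ± 0.11. Ddc, which makes dopamine and serotonin, was lower by -0.48 ± 0.09 on day 3 (adjusted p = 0.00554), with an interaction of -0.29 ± 0.13. None of these 3 interactions passed (adjusted p = 1 for each). On day 1, 4 genes passed (0.0263%): Irf9 was higher (0.00658% of all genes), and Scd2, Sqle and Insig1 were lower (0.0197%). Irf9, Scd2 and Sqle also passed without both libraries that stood apart, and Insig1 did not. With a block for each experiment and day, 56 genes passed on each day.

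Libraries in mSOD1 medium, from astrocytes over-expressing mutant SOD1, allow the same interaction against NTg medium, with which it shares the NTg libraries. There Abcg1 had 0.15 ± 0.14 (adjusted p = 0.644), Abca1 0.33 ± 0.13 (0.253) and Idi1 0.14 ± 0.07 (0.369). Irf9, whose interaction in wtSOD1 medium did not pass, had a called interaction of -0.65 ± 0.10 in mSOD1 medium (adjusted p = 6.28e-04), also negative. The difference between the wtSOD1 and mSOD1 interactions was -1.02 ± 0.14 for Abcg1 (adjusted p = 3.89e-05), -1.09 ± 0.13 for Abca1 (5.97e-06) and 0.25 ± 0.07 for Idi1 (0.0896). This difference passed for 90 genes (0.592% of all genes). They included Sqle (0.24, 0.0467), Insig1 (0.29, 0.0232), Nsdhl (0.37, 0.0251), Bcl3 (-0.79, 0.0232), Fos (-0.74, 0.0102) and Fosl2 (-0.39, 0.0333). It did not pass for Fdps (0.43, 0.0834), Sc4mol (0.33, 0.0984), Lss (0.32, 0.115) and Fdft1 (0.19, 0.316).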

How the data were processed

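Gene expression was measured by RNA sequencing. The authors deposited, per the file headers, 1 read count per gene and library, in whole numbers. TopHat 1.3.3, DESeq and the build mm9 appear in the submitters' processing notes. For the counting program, annotation and strandedness, not given in the sources used here, nothing was assumed. The authors' transformed values in the same files were not used.

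The test was edgeR 4.0.16 under R 4.3.3 (robust quasi-likelihood F-tests, TMM scaling, filterByExpr by group). A single model of the 6 groups was fitted to all 36 libraries, so that they share 1 estimate of spread (30 residual degrees of freedom). The filter kept 15207 of 21761 genes; 1798 had no read and 7 no symbol. P-values were adjusted (Benjamini-Hochberg) over all genes tested. The script was tested on simulated data. Levels are CPM on TMM-scaled totals, with a prior count of 2 for logarithms. SE is the log2 estimate divided by the root of F. No libraries were identical.

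Same-numbered libraries were read as 1 experiment, per the labels. Their deviations from group means correlated at a mean of 0.25 on day 3 and 0.143 on day 1 between media, against -0.05 and -0.027 for other numbers, and at 0.053 (wtSOD1) and 0.048 (NTg) across days. Nothing in the labels ties a number to a separate medium preparation, so p-values measure the spread between these libraries, which may be partly technical. Counts of experiments with the same sign use the libraries by which most named genes were chosen, so they are description only.

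The comparison, the 44 gene lists (977 entries, 975 matched) and the rule for named genes were chosen with earlier results of these data known. Named were called genes and, up to 10 per direction, those of lowest p at an average log2 CPM of at least 1, with all libraries, without the 2 that stood apart and with the replicate block; up to 4 members of each list; genes called on either day; and fixed markers. Not every gene the rule selects is printed. Members named beyond it, and those of the block for each experiment and day, were chosen after their values were seen. Overlapping genes were looked up by gene identifier in the GRCm38.p6 RefSeq table. Alternatives were DESeq2 1.42.0, limma 3.58.1 voom with sample weights, other filters and scaling, blocks, and leaving out libraries.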

Additional observations from a re-analysis of the deposited data

Results flagged for a closer look

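The interactions of Abcg1 (-0.87), Abca1 (-0.76) and Idi1 (0.39, log2) are differences between the day 3 and day 1 effects of the same medium contrast that passed an adjusted p of 0.05 (edgeR). Among 100 groups of 6 libraries (25 genes in 4 groups), 5 had a library far from the others, and chance flags about 1 in 20 groups. Idi1 reached 106 CPM in NTg replicate 6 of day 1, against 95.3 to 98.9 CPM in the other libraries. Sc4mol had 50.4 CPM in wtSOD1 replicate 4 of day 1, against 65.2 to 72.1 CPM. Scd2 had 1822 CPM in wtSOD1 replicate 1 of day 3, against 2028 to 2091 CPM, and 2370 CPM in NTg replicate 1 of day 3, against 2577 to 2650 CPM. Rnf145 had 187 CPM in wtSOD1 replicate 3 of day 3, against 167 to 173 CPM.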

How the results depend on the processing

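The interaction counted 3 genes with all libraries; the same 3 were among those called with only the 24 libraries (3), DESeq2 size factors (3), no low-count filter (3), an average log2 CPM of at least 1 (3), the replicate block (4), DESeq2 (4) and limma voom with sample weights (6). It counted 19 with a replicate block within each day, 5 with the replicate block without NTg replicate 6 and wtSOD1 replicate 4 of day 1, and 38 with the block within each day and without both, a setting chosen after seeing the data. Leaving out each of the 24 libraries gave 1 to 4 genes, the 1 (Abcg1) without wtSOD1 replicate 4 of day 1. For wtSOD1 against NTg, in the same settings where the count moved by over 1.5 times, day 3 (15 genes) gave 56, 28 and 98 with those 3 blocks and 28 with limma voom, and 11 to 19 with a library left out. Day 1 (4 genes) gave 9 with the replicate block, 56, 11 and 51 with those 3 blocks and 17 with DESeq2, which left 5013 adjusted values missing. With a library left out it gave 2 to 7, the lowest without NTg replicate 1, NTg replicate 4 or wtSOD1 replicate 4 of day 1 and the highest without NTg replicate 6 of day 1. Direction changed for Apoe and Tmem30c only, among the genes named. Apoe (0.35) was -0.53 without both libraries, -0.66 and -0.51 with the 2 blocks without them, -0.25 with limma voom and -0.65 to 0.59 with 1 library left out, the lowest without NTg replicate 6 of day 1. Tmem30c (-4.32, adjusted p = 1), a gene at 95.3 CPM in wtSOD1 replicate 4 of day 1 and at most 1.29 CPM in the 3 other groups, was 0.61 without both, 0.61 and 0.58 with the 2 blocks without them, and -4.59 to 0.55 with 1 library left out, the highest without wtSOD1 replicate 4 of day 1. Why counts moved was not tested. Library totals ran from 4.39 to 88.9 M reads, and the SE of the interaction was 0.62 for Aldh1a1, which had 1 to 6 reads per library on day 1, and 0.14 for Abcg1.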

Other observations

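Genes of the extracellular matrix and of neuropeptides had mostly negative interactions, none of which passed. Of 26 collagens, laminins and integrins tested, 20 were negative and 6 positive, with a median of -0.10 (-0.13 without both libraries that stood apart). Postn, a matrix protein of mesenchyme, had -0.40 ± 0.19, Col5a2 -0.23 ± 0.11 and Col1a1 -0.33 ± 0.25 (adjusted p = 1 for each, edgeR). Of 22 neuropeptide genes, 19 were negative and 3 positive, with a median of -0.11. Such a lean was not particular to these lists. Negative and positive estimates numbered 20 and 7 for the amino acid response driven by ATF4, and 24 and 9 for cytosolic ribosomal proteins. They numbered 17 and 7 for potassium channels, and 5 and 15 for kinesins, dyneins and dynactin. Of 30 proliferation genes, 24 were positive and 6 negative, with a median of 0.04 and none at an unadjusted p under 0.05. The 13 tested genes of cholinergic transmission had a median of -0.04, with none at an unadjusted p under 0.05. Of the 44 lists, 2 had a member past the threshold.

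Without both libraries that stood apart, the genes of lowest p also included Vcam1, an adhesion molecule (-0.46, adjusted p = 0.621), Cdk18, a kinase (-1.24, 0.672), Cthrc1, a secreted collagen-linked protein (-0.58, 0.674), and Cep164, a protein of the basal body (0.31, 0.678). With all libraries these were -0.35, -1.09, -0.41 and 0.20, each with an adjusted p of 1.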
